A study of Mus musculus with 6 samples.

Results

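The 10 genes Pth, Calca, Calcb, Sst, Ghrl, Gcg, Pyy, Cck, Npy and Gal, each encoding a peptide hormone made elsewhere in the body by endocrine cells or neurons, were described in medullary thymic epithelial cells (mTEC) of the mouse. They are 10 of 52636 genes in the count table and were chosen by name because earlier results of the same libraries showed them to differ or vary, so their levels are given as a description and no test is read from them. Bulk RNA was sequenced with an ultra-low input SMARTer protocol from 2 sorted mTEC populations, tuft-like and non-tuft-like (3 libraries each), taken from thymi of C57BL/6 mice at 6 weeks of age. Both populations were UEA1+, MHCII low, CD80-, Sca1- and CD63-. Tuft-like cells were also CD117+ and CD66a+, and non-tuft-like cells CD117- and CD66a-. The labels name no transgene and no treatment. Nothing states that the libraries of a group came from separate animals, so p-values and standard errors measure the spread between these libraries, which may be technical.

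Medullary thymic epithelial cells transcribe many genes that are otherwise restricted to single peripheral tissues, and they present the encoded peptides to developing T cells, which leads to deletion or diversion of self-reactive clones. AIRE drives much of this promiscuous transcription and FEZF2 a further share of it, and individual antigens are typically made by a small fraction of mTEC at a time. Peptide hormones are made as longer precursors that are cut by prohormone convertases, amidated and stored in dense-core granules, and mTEC subtypes that resemble endocrine cells are known to carry part of this machinery.

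Depth lay between 20097617 and 48369825 counts on genes per library, and reads on no annotated feature made up 34.4 to 52.5% of non-tuft-like and 19.7 to 61.6% of tuft-like libraries. Levels are given as CPM, the counts of a gene per unit of library size after TMM scaling (1000000 counts), which assumes that most genes do not differ. The sort labels were checked on 8 genes. Dclk1, a kinase that marks tuft cells, averaged 28.5 ± 7.27 CPM in the non-tuft-like libraries against 1584 ± 290 CPM in the tuft-like ones (SD, n = 3 each), and Trpm5, the cation channel of taste transduction, 105 ± 25.1 against 2076 ± 356 CPM. Ceacam1, which encodes CD66a, averaged 12.0 ± 5.79 against 209 ± 55.4 CPM. Kit, which encodes CD117, averaged 167 ± 23.2 against 395 ± 82.1 CPM with an FDR of 0.0678 by edgeR's quasi-likelihood test. Aire was lower in tuft-like cells, at 292 ± 53.3 against 20.5 ± 2.56 CPM (FDR 0.000334, edgeR), and Fezf2 at 231 ± 20.1 against 35.2 ± 6.80 CPM (FDR 0.000886, edgeR). Krt5, a keratin of medullary epithelium, averaged 338 ± 79.6 against 41.6 ± 51.9 CPM (FDR 0.0985, edgeR). Epcam, an epithelial surface marker, had 230 and 248 CPM in replicate 1 of the non-tuft-like and of the tuft-like group, and 771 to 1041 CPM in the other 4 libraries, so replicate 1 of either group stood apart in this gene.

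The 10 hormone genes together reached 795, 1543 and 551 CPM for replicates 1, 2 and 3 of the non-tuft-like group, and 241, 129 and 204 CPM for those of the tuft-like group in the same order. The groups did not overlap in this sum. Without Pth the sums were 793, 543 and 322 CPM against 240, 129 and 203 CPM, and the groups still did not overlap. Which hormone contributed most differed from library to library. Calcb led in non-tuft-like replicate 1 with 31.9% of the sum, and Pth led in replicates 2 and 3 with 64.8% and 41.5%. Among the tuft-like libraries, Gcg led in replicate 1 with 57.0%, Sst in replicate 2 with 29.0% and Calcb in replicate 3 with 38.8%. In bulk RNA, fewer cells making a hormone and less hormone RNA per cell cannot be told apart.

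**Figure D1:**
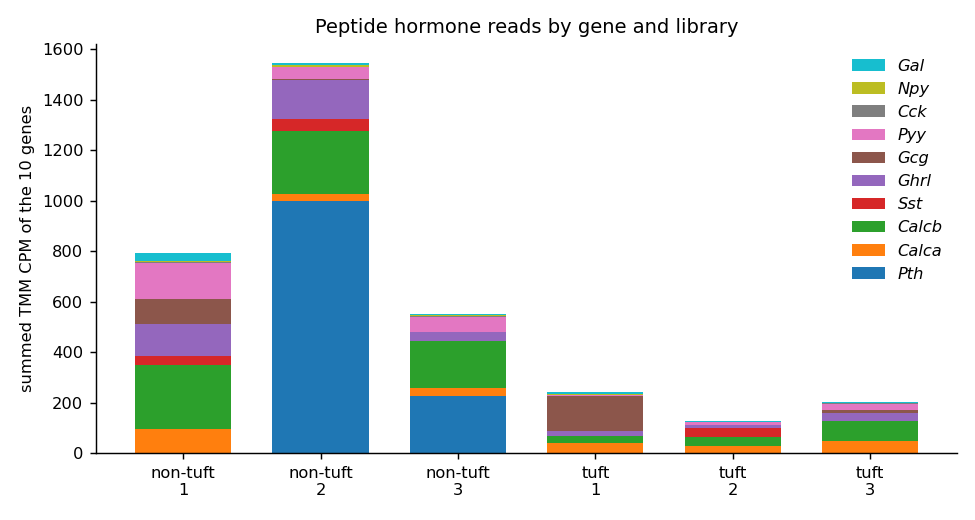
Stacked bars give the TMM CPM of each of the 10 hormone genes in each of the 6 libraries, from 0. The non-tuft-like bars reach 551 to 1543 CPM and the tuft-like bars 129 to 241 CPM, and Pth fills 64.8% of non-tuft-like replicate 2 but 0.179% of replicate 1.

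All 10 genes passed the filter on low counts in the fit over 32496 genes. The fitted level was lower in tuft-like mTEC for 9 of them, where 49.0% of all tested genes were lower, and the median log2 fold change (tuft-like over non-tuft-like) was -2.0 against 0.02 over all tested genes. In 5 of the 10, Pth, Calcb, Ghrl, Pyy and Npy, the 3 tuft-like libraries all lay below the 3 non-tuft-like libraries, which held for 8.85% of tested genes (16.0% in either direction). At an FDR of 0.05, 2 were called, Pth and Calcb, where 2.11% of tested genes were called in either direction. Both were lower, beside 0.951% of tested genes called lower, and 0 were called higher beside 1.16%. At an unadjusted p under 0.05 there were 5, beside 8.97% of tested genes. The genes were chosen with this contrast known, so nothing is read from these counts. The number called went to 0 without tuft-like replicate 2 (1.05% of tested genes called in that setting), to 1 without tuft-like replicate 1 (2.19%), and to 4 without non-tuft-like replicate 3 (1.5%). DESeq2 called 5 of the 10 and 5.86% of tested genes. The balance of calls over all genes also turned on a library, since without tuft-like replicate 3 there were 612 lower (1.62% of tested genes) and 310 higher (0.823%), in place of 309 and 378.

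**Figure D2:**
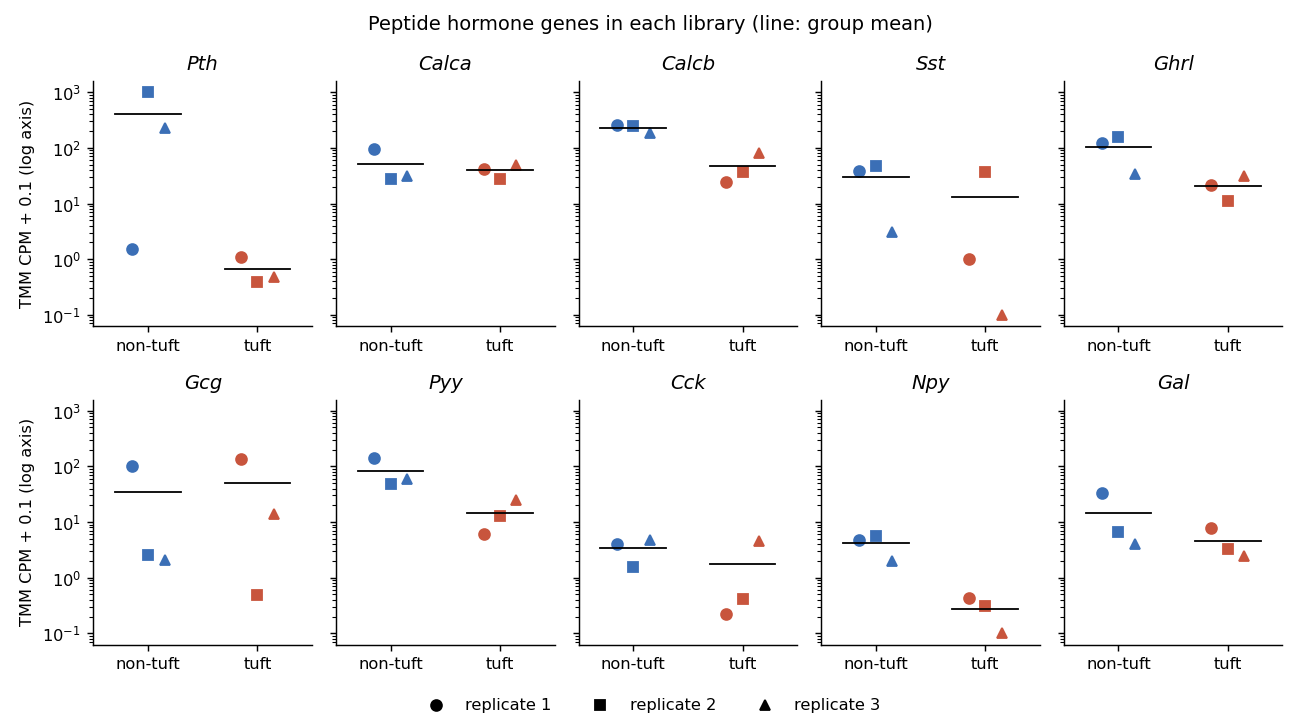
Points give the CPM of each hormone gene in each library, with 0.1 added on a log axis, shapes mark the replicate number and the line is the group mean. Calcb, Ghrl, Pyy, Npy and Pth show no overlap between the groups, and the non-tuft-like values of Pth run from 1.42 to 1000 CPM.

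Pth encodes parathyroid hormone, which raises blood calcium and is made mainly by the parathyroid gland. The gene lies on the minus strand at chr7:113385580-113388570 (mm10). Replicates 1, 2 and 3 of the non-tuft-like group held 45, 46981 and 7200 of its reads, and those of the tuft-like group 24, 10 and 14. In CPM these were 1.42, 1000 and 229 against 0.992, 0.292 and 0.387. Non-tuft-like replicate 1 thus sat next to the tuft-like libraries, and replicate 2 alone held 81.2% of the CPM summed over all 6. The group means were 410 ± 523 and 0.557 ± 0.380 CPM, with an SD above the mean in the non-tuft-like group. The log2 fold change was -9.57 (SE 1.85), and it was -7.72 without non-tuft-like replicate 2. The call at an FDR of 0.05 was lost in 5 of 13 alternative settings, with limma voom (FDR 0.865), with the replicate number as a block (0.0669), and without tuft-like replicate 1 (0.0544), 2 (0.0714) or 3 (0.119).

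Markers of the parathyroid gland were set beside these values. Of 6 such genes, 5 were tested and all 5 had a lower fitted level in tuft-like cells, beside 49.0% of all tested genes. Of the 5, 1 was called (Gata3, 52.3 ± 10.4 against 10.4 ± 2.04 CPM, FDR 0.00749, edgeR), beside 0.951% of all tested genes called lower. The summed level of the 6 genes was 197 to 241 CPM in non-tuft-like and 70.5 to 184 CPM in tuft-like libraries. Gcm2, the transcription factor that defines the gland, was read 0, 178 and 10 times in the non-tuft-like libraries and 36, 1 and 0 times in the tuft-like ones. Casr, the calcium-sensing receptor of the gland, stayed between 95.0 and 140 CPM over the non-tuft-like libraries, among which Pth ranged 704-fold, and lay between 42.8 and 139 CPM over the tuft-like libraries. The highest Gcm2 count fell in the library with the highest Pth count. There it was 53.9 counts per exon kilobase, below the 99th percentile of olfactory receptor genes (81.3), the reference for low reads used below. Gcm2 exceeded that reference in 0 non-tuft-like and 0 tuft-like libraries. The part of parathyroid cells in the Pth values was not tested.

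Calca and Calcb are neighbours on chr7, on opposite strands and 82285 bp apart, and Pth lies 1242907 bp from Calca. Calca (chr7:114631478-114636357, minus strand) encodes calcitonin and, by alternative splicing, the alpha form of calcitonin gene-related peptide (CGRP), a vasodilator released by sensory nerves. Calcb (chr7:114718643-114723365, plus strand) encodes the beta form of the same neuropeptide. The coding stretch that begins with the longest run shared by the genes is shown because that run limits how their reads can be separated. The stretch spans 121 bases of one transcript of each gene (GENCODE M21), 5′ to 3′, with the 5 positions at which they differ in capitals.
Calca: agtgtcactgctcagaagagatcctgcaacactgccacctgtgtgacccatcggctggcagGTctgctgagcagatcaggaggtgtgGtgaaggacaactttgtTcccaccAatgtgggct
Calcb: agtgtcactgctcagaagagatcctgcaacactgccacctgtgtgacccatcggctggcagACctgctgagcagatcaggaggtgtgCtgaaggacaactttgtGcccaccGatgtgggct
The stretches are 95.9% identical and share their first 61 bases, so a read inside that run has no base that tells the genes apart. The next longest run shared by any pair of the 10 genes was 12 bases.

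Calcb stood at 254, 250 and 184 CPM in the non-tuft-like libraries, and at 24.3, 36.5 and 79.1 CPM in tuft-like mTEC. Its non-tuft-like libraries lay within a 1.38-fold range, the narrowest among the 10 genes, and the highest tuft-like library, replicate 3, stayed below all of them. The means were 229 ± 39.4 and 46.6 ± 28.8 CPM, a log2 fold change of -2.29 (SE 0.43). The call at an FDR of 0.05 was lost without non-tuft-like replicate 2 (FDR 0.0581) and without tuft-like replicate 2 (FDR 0.103), and was kept in the other 11 settings. Calca, by contrast with its neighbour, overlapped between the groups, with 93.9, 28.0 and 31.3 CPM in non-tuft-like cells beside 41.8, 27.3 and 48.2 CPM in tuft-like cells. Its log2 fold change of -0.39 (SE 0.48) became 0.39 without non-tuft-like replicate 1, the library with the highest Calca. The difference between the neighbours' changes was not tested.

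Ghrl encodes ghrelin, the appetite hormone of the stomach, and lies on the minus strand at chr6:113716119-113719880. Its non-tuft-like libraries read 124, 154 and 33.3 CPM, and its tuft-like libraries 21.3, 10.8 and 30.6 CPM. The groups were separated by a narrow margin, since non-tuft-like replicate 3 (33.3) stood just above tuft-like replicate 3 (30.6). On the log2 scale the fitted difference was -2.31 (SE 0.56). Of its 1079 exonic bases, 172 are shared with Gm26982 and Gm44033 on the other strand, and reads there cannot be told apart without strand, which the sources used here do not give.

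Pyy encodes peptide YY, a satiety hormone of enteroendocrine cells of the distal gut (chr11:102106676-102107832, minus strand). It had 141, 48.7 and 58.4 CPM in the non-tuft-like libraries and 6.12, 12.7 and 24.7 CPM in the tuft-like libraries. All non-tuft-like values exceeded all tuft-like values, and the log2 fold change was -2.51 (SE 0.57). Pyy missed the FDR of 0.05 with all libraries (0.0543, edgeR) but passed it in 10 of 13 alternative settings. Npy, its relative in sequence and receptors, encodes neuropeptide Y, a transmitter of neurons (chr6:49822710-49829507, plus strand). Npy was low, with 146, 262 and 59 counts over the non-tuft-like libraries beside 8, 7 and 0 over the tuft-like ones. The groups did not overlap and the log2 fold change was -4.48 (SE 1.75). Npy missed the FDR of 0.05 with all libraries (0.397, edgeR) and passed it in 1 of 13 alternative settings. The single library at 0 counts allows up to 0.0828 CPM.

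Sst encodes somatostatin, which restrains the release of many hormones (chr16:23889573-23890958, minus strand), and Gcg encodes the precursor of glucagon and of the glucagon-like peptides (chr2:62474530-62483650, minus strand). For both, 1 or 2 libraries of either group carried most of the reads. Sst had 37.9, 47.4 and 2.92 CPM in the non-tuft-like libraries and 0.909, 37.4 and 0 CPM in the tuft-like libraries. Tuft-like replicate 2 was therefore at the level of the high non-tuft-like libraries, while tuft-like replicate 3 held no read. Gcg had 101, 2.45 and 1.94 CPM in the non-tuft-like libraries and 138, 0.380 and 13.9 CPM in the tuft-like libraries. Replicate 1 of each group was the high one, although over all tested genes the deviations of these libraries from their group means correlated at -0.117. The log2 fold change of Sst, -1.20 (SE 1.63), was -6.07 without tuft-like replicate 2. That of Gcg, 0.52 (SE 1.63), was 4.52 without non-tuft-like replicate 1 and -2.29 without tuft-like replicate 1. It was also below 0 with the second (-0.05) or the third (-0.02) library of the non-tuft-like group omitted, so that its sign turned on single libraries. The high Gcg libraries were those with the low Epcam levels given above, as was the non-tuft-like library with the highest Calca and Gal, and the part of this in the levels of these genes was not tested.

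Cck encodes cholecystokinin, the gut hormone of gallbladder contraction and satiety (chr9:121489824-121495694, minus strand). It had 3.85, 1.45 and 4.74 CPM in the non-tuft-like libraries and 0.124, 0.322 and 4.56 CPM in the tuft-like libraries. Tuft-like replicate 3 was thus as high as the non-tuft-like libraries, and the log2 fold change of -1.0 (SE 1.5) was -3.91 without it. Gal encodes galanin, a neuropeptide of the brain and gut (chr19:3409915-3414544, minus strand). It had 32.6, 6.43 and 3.94 CPM against 7.69, 3.19 and 2.32 CPM. The groups overlapped, and the log2 fold change of -1.71 (SE 0.92) was -0.25 without non-tuft-like replicate 1, the library in which Gal was highest.

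**Figure D3:**
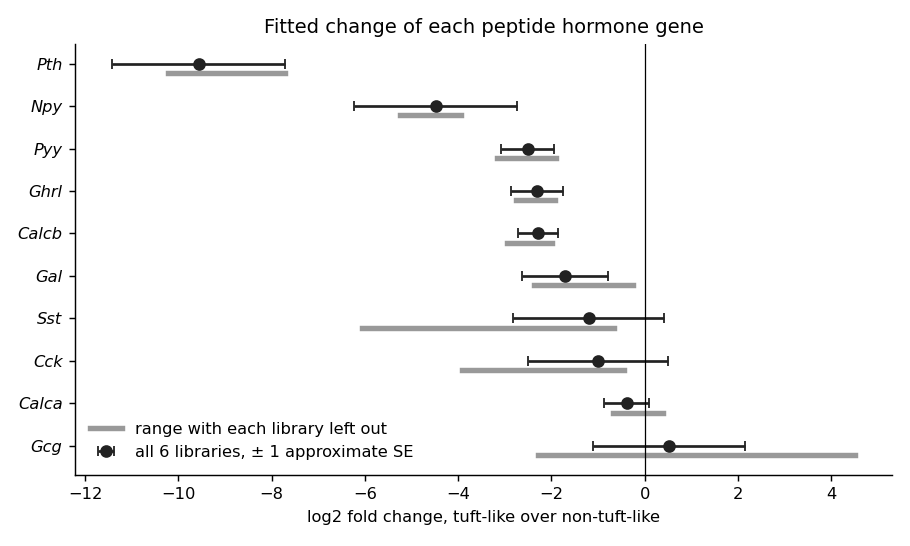
Points give the fitted log2 fold change of each hormone gene with 1 approximate SE, and the grey bar the range when each library is left out in turn. The bars of Calca and Gcg cross 0, that of Gcg running from -2.29 to 4.52, while those of the other 8 genes stay below 0.

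The spread between replicates differed widely among the 10 genes. The pooled within-group SD of log2(CPM + 0.5) was 3.36 for Gcg, 3.35 for Pth and 2.75 for Sst, against a median of 0.76 over all tested genes and of 0.44 over the 11593 genes averaging 10 CPM or more. On this scale 0 of the 32496 tested genes had a wider spread than Gcg, 1 had a wider spread than Pth (Gcg itself) and 3 than Sst. Cck (1.28), Gal (1.22), Ghrl (0.99) and Pyy (0.89) were also above the median of tested genes, and Calca (0.74), Calcb (0.63) and Npy (0.57) below it. The choice of members took account of the spread, so this order too is a description. Highest values were not confined to a single library. Non-tuft-like replicate 1 was highest for 4 genes (Calca, Calcb, Pyy and Gal), replicate 2 for 4 (Pth, Sst, Ghrl and Npy) and replicate 3 for 1 (Cck), and tuft-like replicate 1 for 1 (Gcg).

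**Figure D4:**
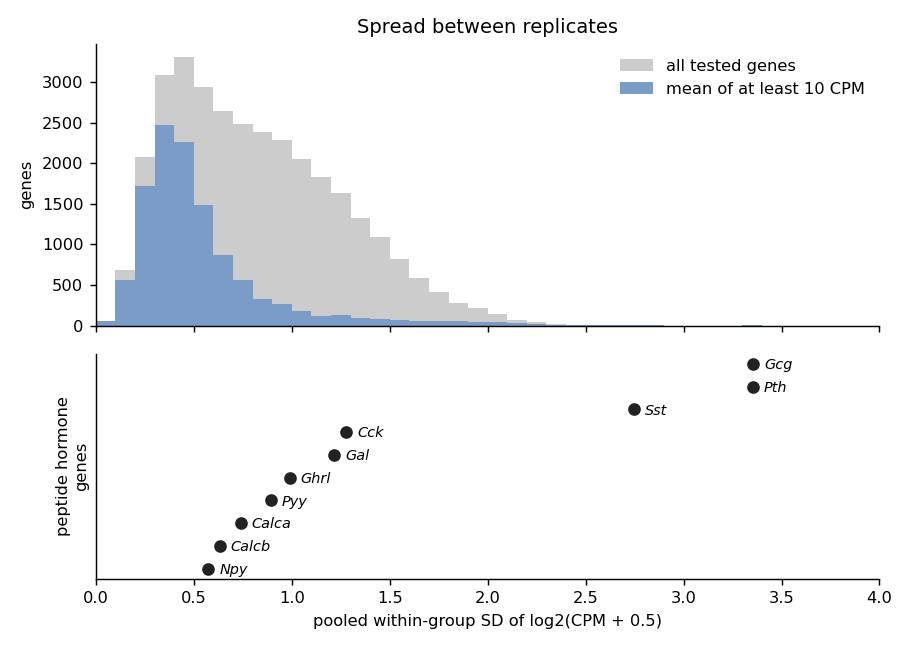
The upper panel counts genes by their pooled within-group SD of log2(CPM + 0.5), over all tested genes and over those averaging 10 CPM or more, and the lower panel places the 10 hormone genes on the same axis. Gcg, Pth and Sst lie at 2.75 to 3.36, in the far right tail, and Calcb and Npy lie within the bulk.

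Levels per exon kilobase allow the 10 genes to be ordered within a group. In non-tuft-like cells the order of the means was Pth at 578, Calcb at 181, Pyy at 131, Ghrl at 96.1, Sst at 40.8, Calca at 30.3, Gcg at 23.6, Gal at 18.2, Npy at 7.10 and Cck at 2.56 CPM per kilobase. In tuft-like cells it was Calcb at 36.9, Gcg at 33.9, Calca at 23.2, Pyy at 23.0, Ghrl at 19.4, Sst at 17.7, Gal at 5.58, Cck at 1.28, Pth at 0.784 and Npy at 0.315. No pair of neighbours in either order was separated, since the ranges over 3 libraries overlapped in every case. Calcb was among the highest in both groups, and Pth moved from the highest mean to the ninth.

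Olfactory receptor genes served as a reference for low read levels. In each library the 99th percentile of 1134 such genes lay between 45.0 and 85.3 counts per exon kilobase. Calca, Calcb, Ghrl, Pyy and Gal exceeded it in all 6 libraries. Pth and Npy exceeded it in all 3 non-tuft-like and in 0 tuft-like libraries, so the tuft-like counts of these 2 genes were within the range of olfactory receptor genes. For Pth in non-tuft-like replicate 1 the value was 63.4 counts per kilobase beside a percentile of 55.0, which left this library near the reference as well. Sst exceeded it in 3 and 1 libraries, Cck in 2 and 1, and Gcg in 1 and 2. Altogether 8 of the 10 exceeded it in every non-tuft-like and 5 in every tuft-like library.

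The promoters of the 3 genes with the widest spread are shown because these genes carry the largest differences between libraries. Each is the 100 bases before the annotated start (RefSeq, GRCm38.p6), read 5′ to 3′ on the minus strand, with a cAMP response element (TGACGTCA) or a TATA box (TATAAA) in capitals where one occurs.
Pth, chr7:113388574-113388673: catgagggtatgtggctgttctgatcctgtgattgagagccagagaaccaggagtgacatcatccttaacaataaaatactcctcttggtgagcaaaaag
Sst, chr16:23890845-23890944: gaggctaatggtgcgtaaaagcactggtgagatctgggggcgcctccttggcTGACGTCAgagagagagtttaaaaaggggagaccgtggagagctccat
Gcg, chr2:62483654-62483753: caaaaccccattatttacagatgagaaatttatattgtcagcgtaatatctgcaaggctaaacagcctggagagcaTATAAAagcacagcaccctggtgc
For Sst the stretch lies within the span of the gene in GENCODE M21, which begins further upstream. Windows from 250 bases before to 50 after the start were found for 9 of the 10 genes, Calcb being the exception. TATAAA on the gene's strand occurred in 2 of them, Gcg at 24 bases and Pth at 249 bases before the start, and in 9.77% of 27025 genes. TGACGTCA on either strand occurred in 1, Sst at 48 bases before the start, and in 2.03% of genes. The shorter TGACG, which lies within TGACGTCA, occurred on either strand in Calca, Sst, Cck and Gal, and in 23.0% of genes. These matches describe letters in a window and were not related to the levels.

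The genes whose pattern over the 6 libraries lay closest to each hormone gene were taken by the root mean square difference of centred log2(CPM + 0.5), among 25990 genes. For Calcb they were Cd74 (0.18), H2-Aa (0.20) and Ubd (0.20), of which Cd74 and H2-Aa belong to MHC class II antigen presentation and Ubd encodes a ubiquitin-like protein. Cd74 read 9021, 9726 and 7715 CPM in non-tuft-like cells and 1148, 1523 and 2512 CPM in tuft-like cells. For Ghrl they were Stk26 (0.33), Iyd (0.42) and AU021092 (0.47), and for Pyy Slc37a2 (0.31), Aqp3 (0.40) and Il12a (0.40). For Calca they were Bcor (0.18), Dpm1 (0.20) and Cacna1g (0.20). For Npy they were Tmem45a2 (0.25), Gm26902 (0.25) and Msx3 (0.27), for Cck Nipal4 (0.27), Derl3 (0.37) and Tent5b (0.41), and for Gal Ccdc150 (0.28), Speer4f2 (0.30) and Gm42161 (0.30). The widely spread genes had more distant counterparts. These were CR974586.5 (1.93), Gm48704 (2.47) and Cpxm1 (2.52) for Pth, Bpifa5 (1.18), Serpinb3a (1.21) and Oas1e (1.22) for Sst, and Ctla2a (1.66), Ankrd34c (1.71) and Gm38010 (1.73) for Gcg. Within the 10 genes, Calcb and Pyy were closest (0.45).

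The other peptide hormones and neuropeptides formed a list of 74 genes. Of 61 tested, 40 had a lower fitted level in tuft-like cells, 3 were called lower and 0 higher (edgeR, 11 at an unadjusted p under 0.05), with a median log2 fold change of -0.60. DESeq2 called 9 lower and 0 higher, beside 2.86% and 3.0% of tested genes, and limma voom called 2, beside 2.78%. Over all tested genes, 49.0% had a lower fitted level, 0.951% were called lower and 1.16% higher, and 8.97% had an unadjusted p under 0.05 (edgeR). The lists that follow are to be read beside the same shares. Penk, the precursor of the enkephalins, fell from 63.5 ± 16.2 to 3.46 ± 1.73 CPM (log2 fold change -4.20, SE 0.50, FDR 0.00169, edgeR). Adm, which encodes the vasodilator adrenomedullin of the calcitonin peptide family, fell from 156 ± 7.75 to 20.5 ± 11.9 CPM (-2.93, SE 0.42, FDR 0.00458, edgeR). Rln3, a relaxin-family neuropeptide, fell from 17.1 ± 4.92 to 1.6 ± 0.12 CPM (FDR 0.0293, edgeR), and its call was lost with limma voom, with the replicate number as a block, and with each library left out in turn except tuft-like replicate 3. Iapp, which encodes amylin, a further peptide of the calcitonin family, was the most abundant of the list by CPM and had 591, 537 and 320 CPM against 476, 552 and 823 CPM. By these values the calcitonin family held members with lower levels in tuft-like cells (Calcb, Adm) and members whose groups overlapped (Calca, Iapp). Insl6, an insulin-like peptide, averaged 32.6 ± 8.82 and 29.4 ± 9.91 CPM. Pthlh, the relative of Pth, was chosen after its values were seen and had 13.2, 40.0 and 21.8 CPM against 2.40, 2.72 and 9.06 CPM (FDR 0.156, edgeR).

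Of the receptors of the 10 hormones, 4 of 26 exceeded the olfactory reference in every non-tuft-like and 2 in every tuft-like library. Of these 26 genes, 20 were tested, 18 had a lower fitted level in tuft-like cells and 0 were called (edgeR, 3 at an unadjusted p under 0.05, 0 by DESeq2 and 0 by limma voom), with a median of -0.68. Among all tested genes 49.0% were lower, 2.11% were called and 8.97% had an unadjusted p under 0.05 (edgeR). Sstr2, a somatostatin receptor, had the highest mean, with 60.7 ± 8.53 and 35.5 ± 8.12 CPM. Calcrl and Ramp1, which together form the CGRP receptor, averaged 24.4 ± 14.8 against 8.34 ± 4.82 CPM and 22.5 ± 6.38 against 13.8 ± 3.95 CPM. Galr1, a galanin receptor, averaged 15.5 ± 5.56 against 5.35 ± 3.37 CPM.

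The enzymes that process prohormones were split in direction. Of 13 tested, 7 were lower and 6 higher, 0 were called (edgeR, 2 at an unadjusted p under 0.05, 0 by DESeq2 and 0 by limma voom), and the median was -0.05. Pcsk1, the prohormone convertase, averaged 75.9 ± 44.5 and 73.3 ± 34.2 CPM, and Pam, the amidating enzyme, 72.0 ± 30.1 and 106 ± 49.2 CPM. Scg5, a chaperone of prohormone convertase, averaged 196 ± 36.2 and 137 ± 50.4 CPM, and Cpe, the carboxypeptidase, 85.5 ± 65.4 and 78.0 ± 40.8 CPM. Granule proteins were lower in 10 of 11 cases, beside 49.0% of all tested genes, with a median of -0.78. In the edgeR fit 1 was called, Cadps, a priming factor of granule release, which fell from 108 ± 22.4 to 39.0 ± 5.08 CPM (log2 fold change -1.47, SE 0.28, FDR 0.0258, edgeR). That call was lost with the replicate number as a block and when the first or second non-tuft-like or the second tuft-like library was omitted. DESeq2, limma voom and library size scaling each called 3, which were Cadps, Chga and Scg2. Over all tested genes these settings called 5.86%, 2.78% and 3.22%, respectively, beside 2.11% in the edgeR fit. Chga, which encodes chromogranin A, averaged 2011 ± 797 and 734 ± 314 CPM (FDR 0.189, edgeR) and was the most abundant of this list. Scg2 and Chgb, granins of the same granules, averaged 635 ± 79.8 against 347 ± 95.3 CPM and 477 ± 120 against 410 ± 111 CPM, and Snap25, a fusion protein, 258 ± 56.6 against 150.1 ± 20.8 CPM. The granule sum per library was 2646 to 4763 CPM in the non-tuft-like and 1334 to 2278 CPM in the tuft-like libraries.

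Among 11 tested transcription factors of endocrine cells, 9 were lower in tuft-like cells, with a median of -0.86, and 0 were called (edgeR, 4 at an unadjusted p under 0.05, 2 by DESeq2, 0 by limma voom). Among all tested genes 49.0% were lower, 8.97% had an unadjusted p under 0.05 (edgeR) and DESeq2 called 5.86%. Isl1 averaged 152 ± 23.6 and 83.8 ± 38.7 CPM, and Rfx6 98.9 ± 38.1 and 45.7 ± 9.98 CPM. Pax6, which regulates Gcg in islet cells, ran the other way with 5.53 ± 1.92 and 16.5 ± 9.62 CPM (FDR 0.496, edgeR). Pax6 exceeded the olfactory reference in 0 non-tuft-like libraries and in 1 tuft-like library. The hormone genes therefore stood beside granule proteins and endocrine factors that were mostly lower, and processing enzymes of both directions. Whether these lists differ from one another was not tested.

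**Figure D5:**
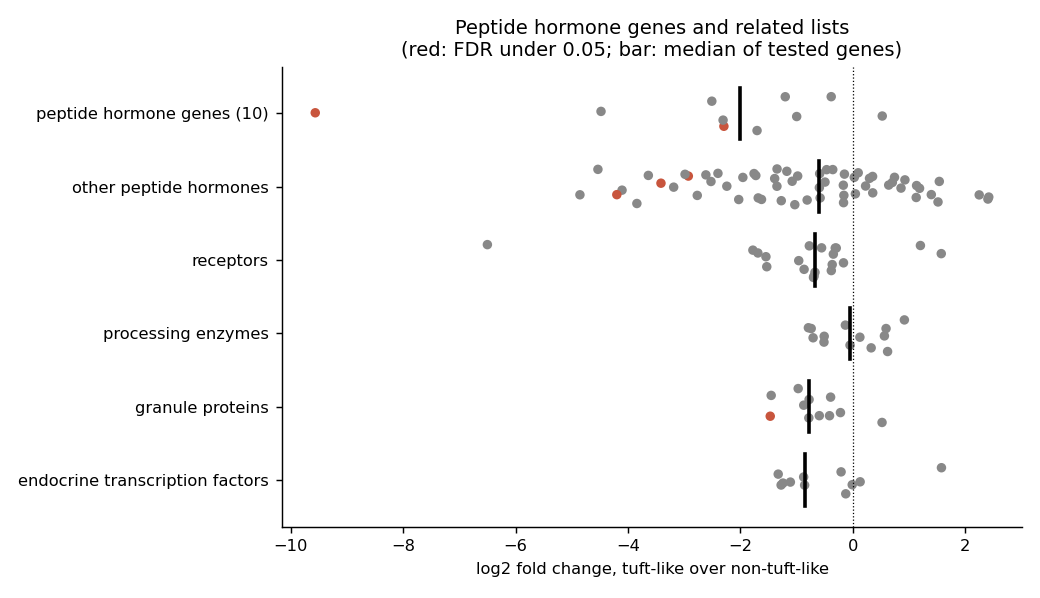
Each point is the log2 fold change, tuft-like over non-tuft-like, of a tested gene in the 10 hormone genes or a related list, with the list median as a bar and genes at an FDR under 0.05 in red. The medians run from -2.0 for the 10 hormone genes, which were chosen on this contrast, to -0.05 for the processing enzymes.

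Markers of other cells were measured in the same libraries. Their counts stand beside 49.0% of all tested genes lower, 0.951% called lower, 1.16% called higher and 8.97% at an unadjusted p under 0.05 (edgeR). Thyroid follicular genes, the lineage beside the calcitonin-producing cells, were lower in 5 of 9 tested, with 0 called (edgeR, 2 at an unadjusted p under 0.05) and sums of 57.6 to 59.7 against 51.2 to 66.6 CPM. Thymocyte genes were lower in 3 of 6 tested, with 0 called (edgeR, 0 at an unadjusted p under 0.05), and summed to 17.7 to 30.3 against 8.51 to 33.9 CPM. Macrophage genes were lower in 6 of 6, with 1 called (Cd68), and summed to 207 to 341 against 122 to 188 CPM. Lyz2 made up most of that sum, averaging 184 CPM over all libraries beside 21.7 CPM for Cd68. Both exceeded the olfactory reference in every library, and the other macrophage genes in at most 1 library of a group. Fibroblast genes were higher in 6 of 6, with 0 called (edgeR, 0 at an unadjusted p under 0.05), and summed to 31.7 to 60.1 against 14.8 to 164 CPM. Endothelial genes were higher in 5 of 5, with 1 called (Tek), and summed to 35.7 to 63.7 against 171 to 338 CPM. Tek carried that separation, since the other 4 endothelial genes summed to 13.5, 27.0 and 26.5 CPM in the non-tuft-like libraries and to 169, 29.1 and 5.69 CPM in the tuft-like ones, where replicate 1 stood apart. Tuft-like replicate 1 was also the highest for the fibroblast genes, at 164 CPM beside 71.7 and 14.8 CPM. Olfactory receptor genes averaged 2.03, 1.17 and 0.227 CPM in tuft-like replicates 1, 2 and 3, the same order. In every non-tuft-like library the olfactory reference was exceeded by 2 of 10 thyroid follicular and 0 of 7 thymocyte genes. It was exceeded there by 1 of 6 fibroblast and 0 of 5 endothelial genes. In every tuft-like library it was exceeded by 1, 0, 0 and 1 of these genes, in the same order of lists. The part of these other cells in the levels of the hormone genes was not tested.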

How the data were processed

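RNA from 3 tuft-like and 3 non-tuft-like mTEC libraries was analysed, grouped by the sample labels. The authors deposited whole read counts per gene, made per the labels and methods by trimming with Trimmomatic 0.36, alignment to mm10 with STAR 2.7.3a and counting with HTSeq. The labels name a column kit for RNA extraction and the methods a phenol reagent. The strand setting and annotation release are not given in the sources used here. Of the gene rows, 52489 (99.7%) matched a name in GENCODE M21, also of mm10, which gave names, positions and exon lengths. The 5 rows of reads assigned to no single gene held 27.1 to 66.6% of reads and, with 92 rows of spike-in controls, were left out. All sample columns were mapped to a label, and 0 were unused.

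Counts were filtered with filterByExpr (minimum count 10, minimum total 15), scaled by TMM and tested with edgeR 4.0.16 (R 4.3.3) by the quasi-likelihood F-test, without covariates, with Benjamini-Hochberg adjustment over 32496 genes and an FDR threshold of 0.05. Standard errors are approximate (the absolute log2 fold change over the square root of F). For a single value, 3 libraries against 3 cannot give an exact permutation p below 0.1. A count of 0 was taken to allow 3 counts, which is 0.0639 to 0.124 CPM. Because PCR copies carry no molecular identifiers here, these limits cover counting error only. The script was tested on simulated data. Alternatives were RLE factors, library size only, DESeq2 1.42.0, limma 3.58.1 (voom), no filter, at least 1 CPM in 3 libraries, the replicate number as a block, and each library left out, 13 in all.

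The members and all gene lists were chosen with earlier results of these data known. The genes named were the 10 members, the sort-label genes, the called genes and up to 4 genes of highest mean CPM of each list of the hormone pathway, and for each member the 3 most similar genes that averaged 1 CPM or more in a group. Of the lists of other cell types, only the defining or called genes and a gene that made up most of a list's sum were named. One gene that this rule names is not reported here.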

Additional observations from a re-analysis of the deposited data

How the results depend on the processing

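Of the 10 hormone genes, 8 kept their direction in all 13 alternatives. With each library left out, Calca ran from -0.68 to 0.39, above 0 without non-tuft-like replicate 1, and Gcg from -2.29 to 4.52, with -0.05 and -0.02 without non-tuft-like replicates 2 and 3, respectively, and -2.29 without tuft-like replicate 1. The 687 genes called (309 lower, 378 higher) became 1045 by library size only, 1904 with DESeq2 and 1127 without a filter, and 376 to 922 with each library left out, lowest without tuft-like replicate 2. Without tuft-like replicate 3 the split was 612 lower and 310 higher. Of all tested genes, 2.11% were called at first, 5.86% with DESeq2, 2.36% without a filter and 3.22% by library size only. The share was 2.78% with limma voom, 2.27% with the replicate block and 1.03 to 2.45% with each library left out. The counts that follow are to be read beside these shares. Hormone genes called, 2 at first, became 5 with DESeq2 and 4 without a filter, and 0 to 4 with each library left out. Other peptide hormones went from 3 to 9 with DESeq2 and 6 without a filter, and to 2 to 5 with libraries left out. Granule proteins went from 1 to 3 by library size only, 3 with DESeq2, 3 with limma voom, 2 without a filter and 0 with the replicate block, and to 0 to 2 with libraries left out. Endocrine transcription factors went from 0 to 1 by library size only and 2 with DESeq2, and to 0 to 1 with libraries left out. Receptors and processing enzymes stayed at 0 in all 13. The cause was not tested. Over all tested genes, deviations from the group means did not correlate positively within a replicate number (-0.117, -0.0462 and -0.290), so the libraries were not treated as paired. Epcam and Gcg did set replicate 1 of both groups apart. Whether libraries of the same number shared animals, a sort or a batch was not tested. With the replicate block, 737 genes were called (2.27% of tested genes), with Pyy and Calcb but not Pth among the hormone genes. Low counts limit the precision of the tuft-like levels of Npy (0 to 8 counts a library), Pth (10 to 24) and, in single libraries, Sst and Cck (as few as 0 and 3).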
